A study of Sus scrofa with 28 samples.

Results

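Liver of pigs labelled with high fat content was represented by 14 of the 28 ATAC-seq libraries of the series, 7 with the number 200 and 7 with the number 600 in their group label. They were selected by that label, and together they held 51838 of the 84192 deposited peaks. The animals were female Zlotnicka White pigs of 180 days, a Polish native breed, kept at one test station on the same feed and slaughtered at a common weight. Liver pieces of all groups were put in hepatocyte medium, digested with Accutase, passed through a strainer and frozen slowly before the libraries were made with a TruePrep kit. The high and low fat values are entered under a label called shear force, and the labels state neither what fat was measured nor what 200 and 600 mean. Every 200 library carries one ending in the peak table's sample column and every 600 library another, so the set and whatever that ending marks cannot be told apart. Each 200 library has a 600 library with the same title number and replicate number. The labels do not name the animals, so such libraries share a number and were not known to share an animal. Nothing in the labels shows that replicates came from separate animals either, and p-values measure the spread between these libraries, which may be technical.

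ATAC-seq uses a transposase that inserts sequencing adapters where DNA is not wrapped tightly in nucleosomes, so reads pile up at active promoters, at enhancers and at other accessible sites. Fragments shorter than a nucleosome come mainly from open linker DNA, whereas longer ones span 1 or more nucleosomes. In hepatocytes, the main cell type of liver, the promoters of housekeeping and stress genes and those of genes for plasma proteins are known as open regions. The deposited file lists where each library passed a peak caller's limits. A site missing from a list may be closed, thinly sequenced or removed by a filter, and fewer cells with a site open and a less open site in every cell cannot be told apart in bulk tissue.

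The libraries differed widely in how much they listed. High fat 200 replicates 1 to 7 listed 17652, 320, 6288, 1610, 1137, 205 and 11943 peaks, and the 600 libraries of the same numbers listed 4455, 68, 1336, 190, 142, 39 and 6453. Replicates 1 and 7 were the longest of the 600 lists, and replicates 2 and 6 were the shortest lists in both sets. Replicate 3 stood apart from the other numbers. Its 600 list overlapped the 200 list of its own number in 21.6% of its peaks, against 56.3% to 93.9% in the other numbers. It overlapped the longer 200 lists of replicate 1 (34.6%) and replicate 7 (29.7%) more. The 600 lists of replicates 4 and 5 also overlapped those of replicates 1 and 7 more than their own. The median −log10 p of the 600 list of replicate 3, 3.17, was the lowest of all 14 libraries. Counts of regions in 1 set only, or in every library, are given with and without replicate 3, and with and without replicates 2 and 6. Overlap shares are given for each number.

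The 600 libraries listed fewer and wider peaks than the 200 libraries. The 200 list was between 1.85 times (replicate 7) and 8.47 times (replicate 4) as long as the 600 list of its number, and it was the longer list in 7 of 7 numbers. Over the sets the mean log10 peak number was 2.63 ± 0.889 (SD, n = 7) in the 600 libraries and 3.31 ± 0.755 (n = 7) in the 200 libraries. The ranges overlapped, and the difference of −0.68 did not pass the exact permutation test of 7 against 7 libraries (two-sided p = 0.146, adjusted p = 0.437 over 6 library measures). Taken within numbers, the same difference passed an exact sign-flip permutation test (p = 0.0156, the smallest that 7 numbers allow, adjusted p = 0.0469).

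Peak width separated the sets completely. The median width in the 200 libraries of replicates 1 to 7 was 486, 525.5, 442, 459.5, 484, 481 and 567 bp. In the 600 libraries of the same numbers it was 1075, 942, 832, 1049, 1001, 906 and 1124 bp. The lowest 600 value lay above the highest 200 value. The means were 990 ± 103 bp (SD, n = 7) against 492 ± 41.9 bp (n = 7), a difference of 498 bp (exact permutation p = 0.000583, the smallest that 7 against 7 libraries allow, adjusted p = 0.0035). The ratio of the medians lay between 1.79 (replicate 2) and 2.28 (replicate 4). The narrowest peaks differed in the same way. The narrowest of all 200 peaks was 207 bp and the narrowest of all 600 peaks 504 bp. Peaks under 500 bp made up 50.7% of the 200 peaks (19866 of 39155) and 0 of the 12683 peaks of the 600 libraries. The smallest deposited signal values, which are peak areas, were close to each other in the sets, 400.006 for 200 and 413.886 for 600, and the smallest signal per bp was 0.80 in both.

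**Figure D1:**
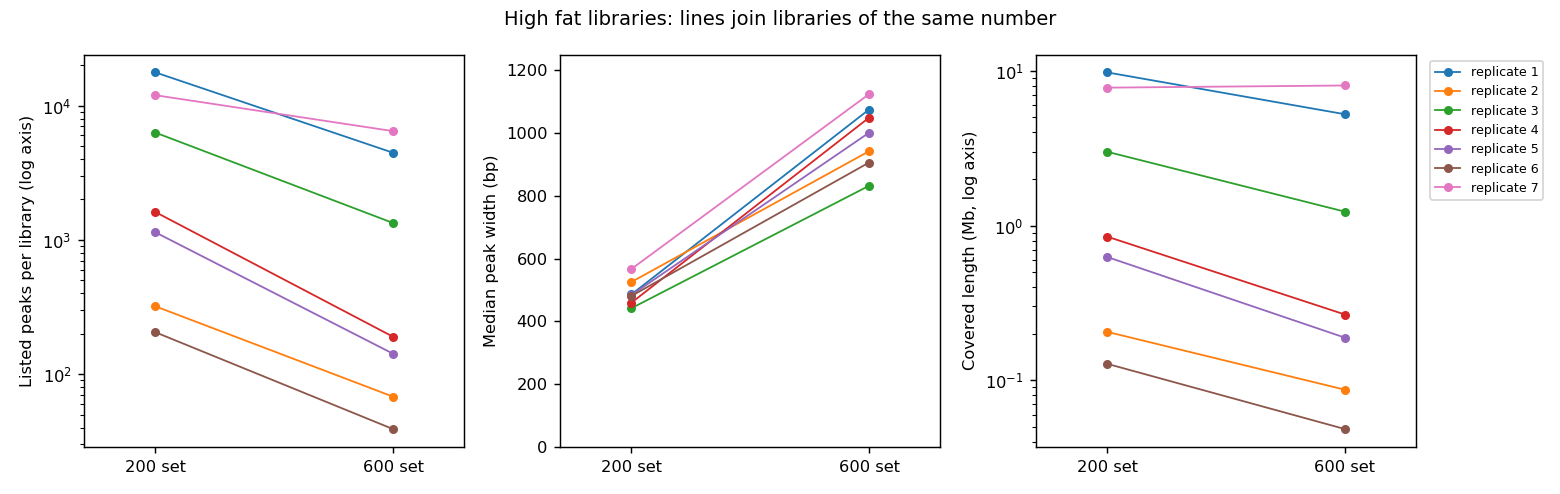
Listed peaks per library (log axis), median peak width in bp and covered length in Mb (log axis) of the 14 high fat libraries, where each line joins the 200 and the 600 library of a replicate number. Every line falls in the first panel and rises in the second, in which the 600 libraries lie between 832 and 1124 bp and the 200 libraries between 442 and 567 bp, and in the third panel the line of replicate 7 is nearly level.

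The covered length, in which both peak number and width enter, differed less than the peak number. The 200 libraries of replicates 1 to 7 covered 9.78, 0.205, 3.00, 0.848, 0.626, 0.128 and 7.80 Mb. The 600 libraries covered 5.25, 0.0869, 1.23, 0.266, 0.189, 0.0484 and 8.05 Mb. Replicate 7 was the one number in which the 600 library covered as much as the 200 library (103%), and in the others it covered 30.1% to 53.7% as much.

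The shares of peaks near gene ends and outside genes did not differ detectably between the sets. A gene end is either annotated end of a gene, since the gene table gives no strand, and a peak counted as near it with its centre within 1000 bp. Such peaks made up 39.3%, 28.4%, 23.9%, 41.5%, 43.7%, 10.2% and 49.9% of 200 replicates 1 to 7. In the 600 libraries they made up 65.7%, 4.41%, 25.4%, 42.6%, 50%, 5.13% and 58.5%. The 600 share was above the 200 share in 5 of 7 numbers and below it in replicates 2 and 6, whose 600 lists held 3 and 2 such peaks. The means were 36.0% ± 24.8 (SD, n = 7) and 33.9% ± 13.7 (n = 7; exact permutation p = 0.846, adjusted p = 0.995). Peaks outside annotated genes made up 55.4% ± 23.1 of the 600 and 49.5% ± 19.2 of the 200 lists (n = 7 each, exact permutation p = 0.603, adjusted p = 0.905). With each 200 list shortened to the number of peaks in the 600 list of its number, that difference turned from 5.85 to −7.75 percentage points (exact permutation adjusted p = 0.736), with the 600 share the lower in 6 of 7 numbers (exact sign-flip permutation p = 0.0625). Peaks inside genes and beyond 1000 bp of a gene end made up 39.1%, 15.6%, 49.6%, 31.7%, 29.3%, 10.24% and 33.2% of 200 replicates 1 to 7. For the 600 libraries this share was 22.4%, 14.7%, 44.2%, 18.9%, 12.0%, 10.26% and 27.7%. It was lower in the 600 library of every number but replicate 6, and it was not tested.

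Peak strength over whole lists, taken as −log10 p and as signal per bp, did not differ detectably either. The median −log10 p was 3.95 ± 0.492 (SD, n = 7) in the 600 and 4.18 ± 0.324 (n = 7) in the 200 libraries (exact permutation p = 0.333, adjusted p = 0.666). The median signal per bp was 1.29 ± 0.374 and 1.29 ± 0.175 (n = 7 each, exact permutation p = 0.995, adjusted p = 0.995). A list of 190 peaks and a list of 1610 peaks do not reach equally far down, however. With only the peaks above the median −log10 p of all 14 libraries the differences changed sign. The 600 libraries were then 0.74 higher in median −log10 p (exact permutation adjusted p = 0.521) and 0.53 higher in signal per bp (exact permutation adjusted p = 0.15). That cut was made on −log10 p itself, so neither value is a clean test of peak strength. When each 200 list was shortened to its strongest peaks, as many as the 600 list of its number held, the 600 peaks remained wider (990 against 586 bp, exact permutation adjusted p = 0.0035). The median deposited signal, an area into which width enters, was higher in the 600 library of every number. It was 651, 633, 490, 512, 535, 677 and 799 in 200 replicates 1 to 7. In the 600 libraries it was 1375, 1972, 782, 1115, 1078, 1707 and 1488, and this difference was not tested.

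Most regions of the 600 libraries were also listed by at least 1 of the 200 libraries. Joining the peaks of the 14 libraries wherever they overlapped, by at least 1 bp, gave 27538 regions. Of these, 6978 (25.3%) were listed in both sets, 19180 (69.6%) in 200 libraries only and 1380 (5.01%) in 600 libraries only. The 200 libraries thus held 83.5% of the 8358 regions of the 600 libraries, while the 600 libraries held 26.7% of the 26158 regions of the 200 libraries. Regions of a single set came mostly from a single library, 16111 of the 19180 and 1333 of the 1380. Of the regions in 600 libraries only, 781 were listed by replicate 3. Without replicate 3 there were 623 regions in 600 libraries only and 14905 in 200 libraries only, and 91.6% of the 600 regions were also 200 regions. Without replicates 2 and 6 the counts were 1376 and 19123. Of the regions listed in both sets, 58.6% (4089) were near a gene end. The share was 22.2% (4250) for regions of the 200 libraries only and 15.7% (217) for regions of the 600 libraries only.

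No region passed the test of presence. Of the 27538 regions, 6088 were listed in at least 3 of the 14 libraries and were tested with Fisher's exact test on the number of libraries listing them. With Benjamini-Hochberg adjustment 0 (0%) were listed more often in the 600 and 0 (0%) in the 200 libraries. At an unadjusted p under 0.05 there was 1 region more often in 600 libraries (0.0164%) and 58 more often in 200 libraries (0.953%). The exact sign test within numbers gave 0 adjusted calls and 37 unadjusted ones. A region in all 7 libraries of one set and in none of the other has p = 0.000583 by Fisher's exact test, and at least 71 such regions would have been needed for them to pass, so these counts do not show that presence was alike.

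There were 15 regions in 7 of 7 of the 200 libraries and in 0 of 7 of the 600 libraries (Fisher's exact adjusted p = 0.237, not passing), and none of the 15 lay near a gene end. Each had to be listed by 200 replicate 6, in which only 21 of 205 peaks lay near a gene end. The 15 regions gathered in a few places. Chromosome 5 held 4 of them between 39996056 and 40179611, chromosome 9 held 4 between 63266639 and 63477055 on the side of MROH9, and chromosome 6 held 2, at 38757235 to 38758030 and 38780960 to 38781438. The one at 38757235 was the strongest, with −log10 p of 7.95, 6.08, 8.76, 8.42, 7.65, 6.15 and 7.44 in 200 replicates 1 to 7. All 7 libraries were thus well above the median of their lists at a site that no 600 library listed. The lone sites included chromosome 12, 58676929 to 58677220, which lay 2698 bp from PMP22, a gene for a myelin membrane protein. There the −log10 p was 5.13, 6.54, 5.07, 5.37, 5.01, 4.34 and 4.37, and its nearest 600 peak was 396647 bp away. Its 200 peaks were 240 to 291 bp wide, narrower than any 600 peak. A further one, at chromosome 8, 19073 to 19488, lay 2156 bp from PIGG, a gene of glycolipid anchor synthesis, and one at chromosome 3, 41852228 to 41853429, lay 40860 bp from the zinc finger gene ZNF484. The region at chromosome 11, 73604045 to 73604918, had no 600 peak within 661045 bp. At the other extreme a region of chromosome 9, 63476343 to 63477055, ended 43 bp from a 600 peak, so for some of the 15 a 600 peak lay beside the region and not over it. Without replicate 3 the number of such regions was 18, and without replicates 2 and 6 it was 28.

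Those clusters were stretches of dense 200 peaks. Their bounds were drawn after the values had been seen, so the following values are a description. The stretch of chromosome 5 from 39797398 to 40199429 held 94, 40, 75, 70, 57, 34 and 39 peaks in 200 replicates 1 to 7 and 16, 9, 23, 18, 12, 5 and 4 in the 600 libraries. Its 600 peaks had a median width of 1695.5 bp against 666 bp, and a median −log10 p of 3.84 against 5.29. The stretch of chromosome 9 from 63231661 to 63480202 held 38 to 46 peaks in every 200 library, whatever the length of its list. In the 600 libraries it held 14, 6, 15, 10, 9, 0 and 3. Both stretches made up a large part of the short lists, with 12.5% and 12.2% of the peaks of 200 replicate 2 and 16.6% and 19.5% of those of 200 replicate 6. In the 600 lists of replicates 2 and 6 the shares were 13.2% and 8.82%, and 12.8% and 0%. As a share of the list, both stretches were higher in the 600 library of replicates 3, 4 and 5 and lower in that of replicate 7. In replicate 1 the 600 share was lower on chromosome 5 and higher on chromosome 9. Short stretches on chromosome 6 (38750557 to 38834120) and chromosome 7 (24582846 to 24606383) also held more peaks in the 200 libraries. The counts were 3 to 10 against 0 to 2 and 12 to 17 against 2 to 6, without regard to list length.

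The region listed most unevenly towards the 600 libraries lay in the same stretch of chromosome 5. It spanned 39893110 to 39894847, was listed in 6 of 7 of the 600 libraries (all but replicate 7) and in 0 of 7 of the 200 libraries (Fisher's exact p = 0.00466, adjusted p = 0.767). Its −log10 p was 3.93, 4.52, 3.92, 4.21, 3.82 and 4.20 in replicates 1 to 6, and its width 906 to 1734 bp. A neighbouring region at 39817177 to 39818105, 72986 bp from OSBPL8, a gene of an oxysterol-binding protein, was listed in 7 of 7 of the 600 and 3 of 7 of the 200 libraries. The next 2 regions by p were on chromosome 14, each with 5 of the 600 and 1 of the 200 libraries. One of these, 51665691 to 51667217, lay 9086 bp from DGCR6L, and the −log10 p there reached 8.73 in 600 replicate 2.

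Of the 19467 protein-coding genes, 454 (2.33%) had an end peak in more 600 than 200 libraries and 6268 (32.2%) in more 200 than 600 libraries. The excess of 600 libraries was 1 for 418 genes, 2 for 35 and 4 for LOC110256821, which was listed in 5 of the 600 libraries and 1 of the 200 libraries. An end peak in 600 libraries and in none of the 200 libraries was found for 205 genes. CYB5A, which encodes the electron carrier cytochrome b5 that serves fatty acid desaturation, had a peak at chromosome 1, 149736859 to 149738454, in 5 of the 600 and 3 of the 200 libraries. In the 200 libraries its −log10 p was 9.22, 4.49 and 8.66 in replicates 1, 3 and 7, and in the 600 libraries it was 5.21, 4.57, 3.22, 3.22 and 7.54 in replicates 1, 3, 4, 5 and 7. The added 600 peaks of replicates 4 and 5 were the weakest of these. LMBRD1, a lysosomal cobalamin exporter, had 4 against 3. VCPIP1, a deubiquitinase, CDCA3, a cell cycle gene, and NDUFA4, a subunit of the respiratory chain, had 4 against 2 each. ACADL, the long-chain acyl-CoA dehydrogenase, was listed at an end in 600 replicates 3 and 7 (−log10 p of 3.97 and 3.33) and in none of the 200 libraries.

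Within numbers, the shared part of the lists was large on the 600 side and small on the 200 side. Of the 600 peaks, 93.9%, 77.9%, 21.6%, 56.3%, 61.3%, 76.9% and 85.0% overlapped a 200 peak of replicates 1 to 7 (mean 67.6% ± 24.04, SD, n = 7). In the reverse direction 25.7%, 20.3%, 4.88%, 8.20%, 9.15%, 18.5% and 49.1% of the 200 peaks overlapped a 600 peak. Replicate 3 was the lowest in both directions. Counted in base pairs, the shared part of the 600 peaks was smaller. Between 14.5% (replicate 3) and 59.8% (replicate 1) of their covered length lay in 200 peaks (mean 45.4% ± 14.8, SD, n = 7). Where a 600 peak overlapped 200 peaks, it covered 2 or more of them in 5.88% (replicate 3) to 22.6% (replicate 2) of cases, and at most 7. Most of the overlapping 600 peaks thus met a single 200 peak.

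Whether a 200 peak was listed again in the 600 library followed its strength. Each 200 list was divided into 4 equal groups by −log10 p. In replicate 1 the share relisted was 4.31% in the weakest and 69.6% in the strongest group, and in replicate 7 it was 19.96% and 86.4%. In replicate 3 the strongest group reached 11.3%, the lowest of the 7 numbers, and its weakest group was at 2.16%. The strongest group exceeded the weakest in all 7 numbers. In replicate 3 the lower 3 groups met at a tied −log10 p of 3.74, so there they do not compare different strengths. The 200 peaks that were relisted had a median −log10 p of 5.42 ± 0.767 (SD, n = 7) and a median width of 611 ± 56.3 bp. For those not relisted these were 4.09 ± 0.247 and 471 ± 26.6 bp.

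**Figure D2:**
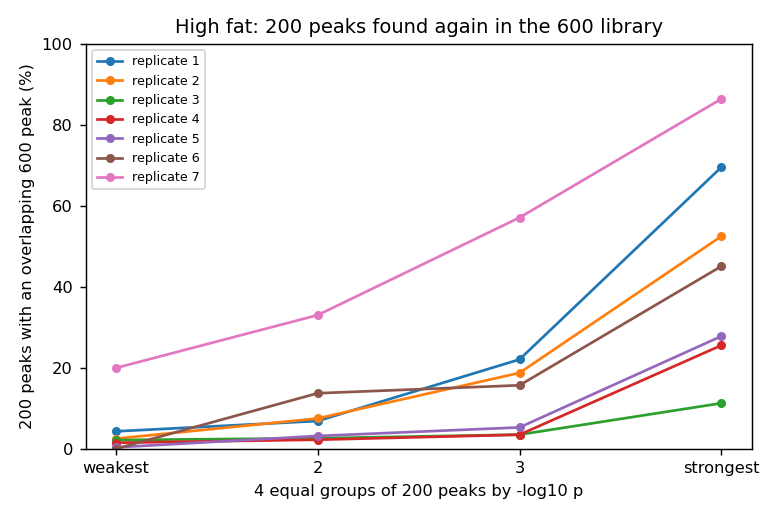
Percentage of the 200 peaks of each replicate number that a 600 peak of the same number overlapped, in 4 equal groups of the 200 peaks from the weakest to the strongest deposited −log10 p. Each of the 7 lines ends higher than it starts, from 0% to 19.96% in the weakest group to between 11.3% and 86.4% in the strongest.

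Over whole lists, relisting near gene ends went one way in some numbers and the other way in others. In replicate 1, 43.5% of the 200 peaks near gene ends and 14.2% of the other peaks were relisted, and in replicate 7 it was 60.2% and 38.1%. In replicate 3 the shares were 9.38% and 3.47%. The other 4 numbers went the other way, such as replicate 2 with 2.20% and 27.5% and replicate 6 with 9.52% and 19.6%. The difference averaged 2.52 percentage points ± 18.6 (SD, n = 7) and was above 0 in 3 of 7 numbers (exact sign-flip permutation p = 0.781). It turned to −1.94 without replicate 1 and to −0.75 without replicate 7, and it was 7.15 without replicate 2 and 4.61 without replicate 6. Within the 4 groups of strength, from the weakest to the strongest, the difference averaged 2.05, 3.83, 2.34 and 1.63 points and was above 0 in 5 of 7, 5 of 6, 5 of 6 and 3 of 5 numbers (exact sign-flip permutation p of 0.281, 0.156, 0.594 and 0.875). These values were computed after the first ones had been seen.

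Where both libraries of a number listed a region, the 600 peak was mostly the wider, with the lower −log10 p and signal per bp. There were 4153, 46, 286, 99, 78, 28 and 5478 such regions in replicates 1 to 7. The median log2 ratio of widths, 600 over 200, was 0.62, 0.52, 0.81, 0.73, 0.65, 0.65 and 0.65. All 7 numbers lay above 0 and close together (mean 0.66 ± 0.0914, SD, n = 7; exact sign-flip permutation p = 0.0156, adjusted p = 0.0156 over 3 measures, the smallest that 7 numbers allow). In bp, the median width at these regions went from 709 to 1090 in replicate 1, from 530 to 887 in replicate 3 and from 740 to 1164 in replicate 7. The 600 peak was wider at 73.9% (replicate 2) to 92.5% (replicate 1) of the regions.

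The deposited −log10 p at the same regions was lower in the 600 libraries. Its median log2 ratio was −0.52, −0.16, −0.26, −0.29, −0.32, −0.37 and −0.36 in replicates 1 to 7 (mean −0.33 ± 0.112, SD, n = 7; exact sign-flip permutation p = 0.0156, adjusted p = 0.0156). The median −log10 p itself went from 5.92 to 4.00 in replicate 1 and from 5.35 to 4.09 in replicate 7. Signal per bp was lower as well, with a mean log2 ratio of −0.39 ± 0.165 (SD, n = 7; lower in 7 of 7 numbers, exact sign-flip permutation p = 0.0156, adjusted p = 0.0156). The interquartile range over regions included 0 for −log10 p in replicates 2 and 6, which had 46 and 28 regions, and was below 0 in the other 5 numbers. For signal per bp it included 0 in replicates 2, 5, 6 and 7 and was below 0 in replicates 1, 3 and 4. Signal per bp was higher in the 600 library at 30.4% of the shared regions of replicate 7 and at 7.92% of those of replicate 1. Set against 200 libraries of other numbers, an alternative chosen after seeing the data, neither difference passed. The mean log2 ratio was then −0.18 for −log10 p (exact permutation adjusted p = 0.211) and −0.18 for signal per bp (exact permutation adjusted p = 0.328). Depth is unknown, and its part in the lower values was not tested.

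**Figure D3:**
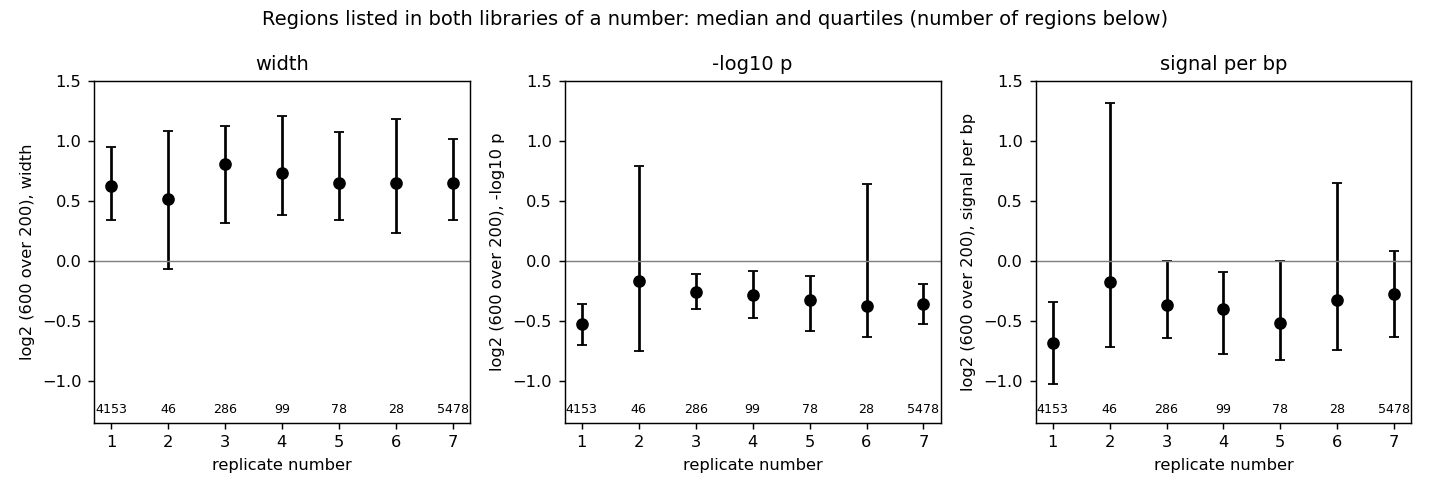
Log2 ratio of the 600 over the 200 library at regions that both libraries of a replicate number listed, for width, deposited −log10 p and deposited signal per bp; points are medians, bars reach from the first to the third quartile over regions, and the counts of regions stand at the foot. The 7 medians lie between 0.52 and 0.81 for width and between −0.52 and −0.16 for −log10 p.

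In most cases the added width lay on both sides of the 200 peak. At regions with 1 peak of each library, the 200 peak lay wholly inside the 600 peak in 79.8% of cases in replicate 1 and 77.0% in replicate 7, and in 62.6% (replicate 3) to 85.2% (replicate 5) over all numbers. In such cases the 600 peak reached beyond the 200 peak by a median of 175 bp at the lower and 174 bp at the higher coordinate in replicate 1. In replicate 7 it was 178 and 175 bp, and over all numbers and both sides the medians stayed between 168 and 202 bp. That both sides were extended in these cases follows from their selection. The size of the extension was nearly the same at each coordinate side and in long and short lists. The summits of the peaks lay a median of 105 bp apart in replicate 1 and 112 bp in replicate 7, and 178 bp apart at most (replicate 6).

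Regions shared in at least 4 numbers allowed the same count site by site. There were 75, of which 53 (70.7%) were wider in the 600 library in every number that shared them, and 55 (73.3%) had the lower −log10 p in every one. The −log10 p was higher in every number at 5 (6.67%). Of the 75 regions, 40 lay near a gene end, and 29 of them were wider and 33 weaker in every number. Of the 35 others, 24 were wider and 22 weaker in every number. The lowest ratio of −log10 p belonged to a region at chromosome 1, 43479449 to 43480141, inside an annotated gene and 20870 bp from PLN, the gene for the calcium pump regulator phospholamban. It was listed in 7 of the 200 and 4 of the 600 libraries, with medians of 8.44 and 3.84 and a median log2 ratio of −1.16. Its median width was 344 bp in the 200 and 680.5 bp in the 600 libraries. Of the 10 regions with the lowest ratios, 8 lay in the stretches of chromosomes 5, 7 and 9 described above, and in those stretches the 600 peaks were not always the wider ones. A region of chromosome 9, 63386099 to 63404368, had a median width of 13361 bp in the 200 and 8937.5 bp in the 600 libraries and was narrower in the 600 library in each of its 6 shared numbers.

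The 5 sites that went the other way, with a higher −log10 p in the 600 library of every number, were all among the 13 regions listed in all 14 libraries. None of the 13 lay near a gene end. Such regions had to be listed by 600 replicates 2 and 6, which held only 3 and 2 peaks near gene ends. The absence of gene ends therefore largely follows from the selection. Without replicate 3 there were 14 regions in every library, and without replicates 2 and 6 there were 31. The strongest was at chromosome 4, 53952623 to 53954548, outside genes. Its −log10 p was 205, 482, 139, 224, 358, 314 and 271 in 200 replicates 1 to 7. In the 600 libraries it was 1696, 6838, 768, 1599, 1791, 2470 and 2114. The sets did not overlap, the median log2 ratio was 2.96, and replicate 2 was the highest and replicate 3 the lowest in both sets. Its peaks were 1393 to 1510 bp wide in the 200 libraries and 1922 to 1926 bp in the 600 libraries.

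The next sites had the same highest and lowest libraries. At chromosome 9, 4699774 to 4702440, the −log10 p was 137, 395, 44.9, 66.2, 209, 101 and 183 in the 200 libraries and 697, 2802, 123, 217, 614, 337 and 862 in the 600 libraries (median log2 ratio 1.74). At chromosome X, 22066778 to 22069793, it was 96.0, 261, 26.9, 32.9, 141, 59.0 and 126 against 374, 1431, 65.4, 101, 314, 177 and 444 (median log2 ratio 1.62). At both sites replicate 2 was again the highest and replicate 3 the lowest in each set, and here the sets overlapped. The remaining 2 were weaker. At chromosome 8, 10235 to 14774, the medians were 8.56 and 16.1 (log2 ratio 0.88), and at chromosome 5, 40191956 to 40199429, they were 9.59 and 12.9 (log2 ratio 0.61). The highest −log10 p of every one of the 14 libraries was that of the site on chromosome 4.

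**Figure D4:**
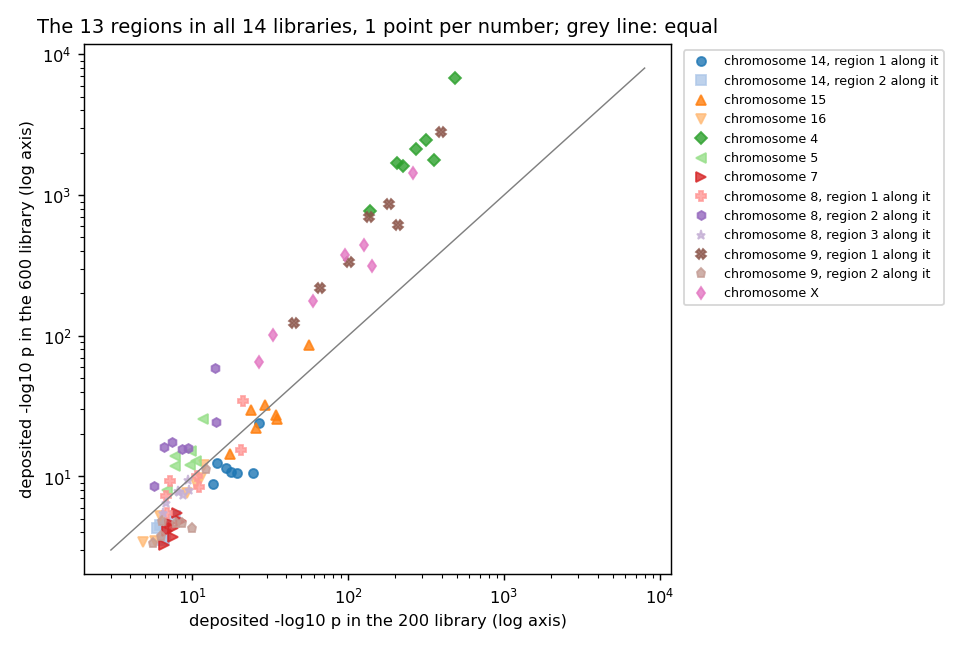
Deposited −log10 p in the 600 library against that in the 200 library of the same replicate number for the 13 regions listed in all 14 high fat libraries, on log axes, with 1 point per region and number and a grey line where both are equal. All 7 points of the sites on chromosomes 4 and X and of region 1 of chromosome 9 lie above the line, and all 7 points of region 1 of chromosome 14, near SPOCK3, lie below it.

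The other 8 of the 13 regions were lower in the 600 library of every number or mixed. SPOCK3 encodes a secreted proteoglycan of the extracellular matrix. The region 54151 bp from its end, inside an annotated gene at chromosome 14, 21808222 to 21808918, had a −log10 p of 14.5, 26.8, 13.6, 17.6, 19.2, 24.4 and 16.5 in 200 replicates 1 to 7. In the 600 libraries it was 12.5, 23.99, 8.90, 10.8, 10.5, 10.6 and 11.5. It was lower in 7 of 7 numbers, while the ranges of the sets overlapped. The width at this site hardly varied within a set. It was 346, 333, 347, 346, 346, 446 and 346 bp in the 200 libraries and 696 or 697 bp in every 600 library. The region nearest PDE4D, a gene for a cyclic AMP phosphodiesterase, at chromosome 16, 37934727 to 37935424, had widths of 302 to 333 bp against 679 to 698 bp. Its −log10 p was higher in the 600 library in 1 of 7 numbers, with medians of 9.30 and 7.59. The region nearest DOCK10, a guanine nucleotide exchange factor, at chromosome 15, 126761566 to 126763024, was mixed, higher in the 600 library in 3 of 7 numbers, with medians of 29.4 and 27.2. A region of chromosome 7, 24590332 to 24594609, was lower in 7 of 7 numbers (medians 7.47 and 4.28) and narrower in 6 of 7. Single regions were not tested for strength, so these counts are descriptions.

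The gene ends found most often in both libraries of a number were so in 5 of 7 numbers at most. They included those of COQ10B, a coenzyme Q binding protein whose end lies beside that of the splicing factor gene SF3B1, and of PPP2R5A, a regulatory subunit of protein phosphatase 2A. PGRMC2, a haem-binding membrane protein, SP4, a transcription factor, HINT3, a nucleotide hydrolase, ZBTB20, a zinc finger repressor, SRGAP2, CDCA2, a cell cycle gene, TLE4, a corepressor, and PCF11, a factor of transcript cleavage, followed. COQ10B (chromosome 15, 101337124 to 101338835) had a −log10 p of 9.93, 5.32, 4.34, 4.15 and 8.31 in 200 replicates 1, 3, 4, 5 and 7, and of 7.38, 5.06, 3.55, 3.71 and 7.09 in 600 replicates 1, 3, 4, 5 and 7. It was lower in the 600 library in 5 of 5 shared numbers and wider in 5 of 5, with median widths of 743 and 961 bp. HINT3 (chromosome 1, 37023475 to 37024791) was in all 7 of the 200 libraries and in 5 of the 600 libraries. At this end the −log10 p was 11.0, 4.82, 4.80, 4.91, 3.93, 3.77 and 9.07 in the 200 libraries, and 6.97, 3.13, 3.97, 3.40 and 5.72 in 600 replicates 1, 2, 3, 5 and 7. In both sets replicates 1 and 7 were the strongest at these genes.

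Not each of these gene ends was weaker in every number. ZBTB20 (chromosome 13, 144854656 to 144856778), CDCA2 (chromosome 14, 9517144 to 9518892) and PCF11 (chromosome 9, 17296898 to 17299135) were higher in the 600 library in 1 of 5 numbers each, with median log2 ratios of −0.10, −0.05 and −0.13. The lowest ratio among the 15 gene ends so chosen was −0.62 at HINT3, before −0.55 at ZSWIM6 and −0.50 at PDIA4, the gene for a protein disulfide isomerase of the endoplasmic reticulum. TLE4 and PPP2R5A were wider in 3 of 5 numbers, with TLE4 peaks of 2096 bp in 200 replicate 1 and 1157 bp in 600 replicate 1.

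The liver label was set against marker genes. Of 19467 protein-coding genes counted by name, 43.9% had an end peak in at least 1 of the 200 libraries and 24.8% in at least 1 of the 600 libraries, and 22.5% had one in both libraries of a number. Without placeholder names the first 2 shares were 49.6% and 28.2%. Of 16 genes for proteins that hepatocytes secrete, 11 had an end peak in a 200 library and 8 in a 600 library. All of these peaks came from replicates 1 and 7, and replicates 2 to 6 listed none of the 16 in either set. Those lists held few gene ends of any kind. Of the 19467 genes, 200 replicates 2 to 6 listed 99, 1583, 776, 566 and 20, and the 600 libraries 3, 399, 105, 87 and 1. The absence of the 16 there is thus not particular to them. ALB, for serum albumin, TTR, for transthyretin, HP, for haptoglobin, HPX, for hemopexin, and FGG, for a fibrinogen chain, had one in both sets of replicates 1 and 7. APOA1, an apolipoprotein gene, and AMBP had one in the 200 libraries of both numbers and in no 600 library. For each gene, however, the 2 peaks lay at opposite gene ends, so neither was the same site listed again. C3, a complement gene, and ASGR1, the asialoglycoprotein receptor gene, had no peak in any library. Hepatocyte transcription factors had 10 of 15 in the 200 and 7 of 15 in the 600 libraries. NR5A2, a bile acid and sterol regulator, was listed in 2 of the 200 and 3 of the 600 libraries and CEBPA in 3 and 0, while HNF4A had no end peak. The CEBPA peak of 200 replicate 4 lay at the other gene end from those of replicates 1 and 7.

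Markers of other liver cells were mostly missing from both sets. Endothelial and stellate cell genes had 0 of 13 in each, and cholangiocyte genes 0 of 5 in each. Kupffer cell and macrophage genes had 3 of 12 in the 200 libraries and 1 of 12 in the 600 libraries, where CD14 was listed in 2 and 1 libraries and CSF1R and SPI1 in 1 and 0. Lymphocyte genes had 3 of 11 and 0 of 11, namely CCL5, CD3D and NKG7 in 200 replicate 1, and the erythroid list had GATA1 in 2 and 0 libraries. No peak lay in the gene or within 1000 bp of it for 8 of the 12 Kupffer cell and macrophage genes, 8 of the 13 endothelial and stellate genes, 5 of the 5 cholangiocyte genes, 7 of the 11 lymphocyte genes and 5 of the 7 erythroid genes. The same held for 7838 of all 19467 protein-coding genes, and for 5403 of the 16298 without placeholder names. These lists were not tested against that background. STAB1, STAB2, VWF, COL1A1, PDGFRB, MARCO, PTPRC and SLC4A1 had a peak in the gene and none near an end.

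Lists of liver metabolism kept different numbers of members in the 600 libraries. Lipogenic genes had 11 of 15 in the 200 and 5 of 15 in the 600 libraries. Of the 11, 45.5% were thus also 600 genes, against 54.1% of all protein-coding genes with an end peak in a 200 library. Within numbers it was 5 of 9 against 45.6% of all genes in replicate 1, and 4 of 9 against 60.6% in replicate 7. With so few members these shares do not set the list apart from all genes, and it was not tested. INSIG1, a sterol-sensing regulator, was listed in 4 and 2 libraries, THRSP, a lipogenic regulator, in 3 and 2, and ELOVL6, a fatty acid elongase, in 2 and 2. Those listed in 200 libraries only were ACLY, MLXIPL, SCD, ACACA, FADS2 and SREBF1, which include the genes for ATP citrate lyase, stearoyl-CoA desaturase and acetyl-CoA carboxylase and the regulators ChREBP and SREBP1. At the THRSP end (chromosome 9) the peak was 643 bp in 200 replicate 1 and 731 bp in 200 replicate 7, and 1304 and 980 bp in the 600 libraries. Its −log10 p was 6.68 and 5.00 against 5.37 and 4.20, so it was weaker in the 600 library of both numbers. Sterol and bile acid genes had 11 of 13 and 7 of 13, or 63.6% of the 200 genes. HMGCS1, an enzyme of sterol synthesis, was listed in 4 and 3 libraries, with −log10 p of 8.76, 4.80, 4.34 and 7.22 in 200 replicates 1, 3, 4 and 7 and of 5.86, 3.17 and 5.07 in 600 replicates 1, 3 and 7. CYP8B1, a bile acid enzyme gene, had no peak.

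Fatty acid oxidation was the one list with more members in the 600 than in the 200 libraries, 7 and 6 of 15. ACADM, the medium-chain acyl-CoA dehydrogenase, was listed in 3 of the 200 and 4 of the 600 libraries. The ACADM peak had a −log10 p of 7.89, 4.12 and 6.85 in 200 replicates 1, 4 and 7, and of 6.22, 4.57, 3.70 and 6.98 in 600 replicates 1, 3, 4 and 7. Replicate 7 was thus slightly higher in its 600 library. The 3 members listed only in 600 libraries were ACADL and, at an end they share, HADHA and HADHB, the subunits of the mitochondrial trifunctional protein, in replicate 7 alone. CPT1A, the carnitine transferase gene at the entry of oxidation, was listed in 200 replicate 3 alone, and PPARA, a regulator of the pathway, had no peak.

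Chaperone genes, whose products fold other proteins, had 14 of 14 in both sets. In replicate 1, 13 of the 14 that the 200 library listed were also in the 600 library, and in replicate 7 it was 14 of 14. For all protein-coding genes these shares were 45.6% (3226 of 7082) and 60.6% (3798 of 6271). The short lists fell lower for chaperones and for all genes, with 2 of 7 chaperones and 8.30% of all genes in replicate 5. DNAJB1 and HSPA13 were listed in 6 of the 200 and 4 of the 600 libraries each, as was the end that HSPD1 and HSPE1 share. At the DNAJB1 end (chromosome 2), the −log10 p was 9.03, 4.63, 4.15, 3.88, 4.35 and 8.18 in 200 replicates 1, 2, 3, 4, 5 and 7, and 6.44, 3.84, 3.40 and 7.72 in 600 replicates 1, 4, 5 and 7. It was lower in the 600 library in each of the 4 numbers. General transcription and splicing genes had 12 and 11 of 15, and 8 of 9 and 11 of 12 of those in the 200 lists of replicates 1 and 7 were in the 600 list of the same number. PCF11 and SF3B1, a subunit of the spliceosome, led with 5 libraries in each set. Immediate early and stress genes had 13 and 11 of 15 and recurred in 11 of 13 and 9 of 10 cases in replicates 1 and 7, led by HSPA8 with 6 and 3 libraries and by JUN and JUND with 4 and 2. Clock genes had 11 and 10 of 14 and recurred in 9 of 10 and 7 of 10 cases, and in 0 of 4 in each of replicates 3 and 4, led by ARNTL, the core activator, and NR1D2, a repressor, with 4 and 2 libraries each. In replicates 1 and 7 the secreted hepatocyte genes recurred in 5 of 9 and 8 of 11 cases, sterol genes in 6 of 11 and 7 of 11, and lipogenic genes in 5 of 9 and 4 of 9. The shares differed between the numbers and no list was tested, so these counts are descriptions.

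**Figure D5:**
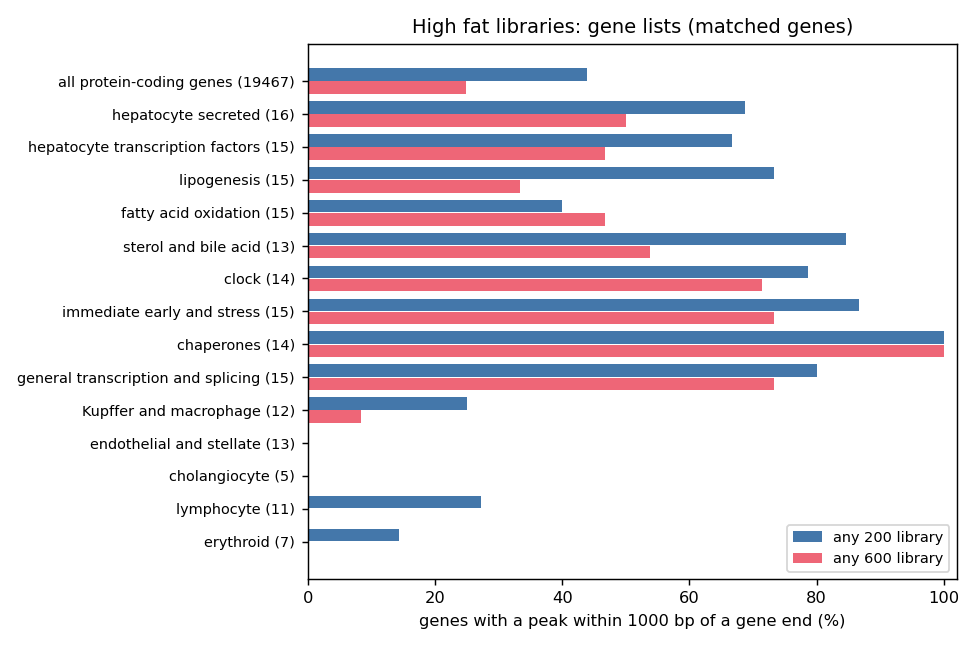
Percentage of the matched genes of each list, and of all protein-coding genes, with a peak within 1000 bp of a gene end in at least 1 high fat 200 library and in at least 1 high fat 600 library; the number of matched genes stands in brackets and the axis starts at 0. Chaperone genes reach 100% in both sets, fatty acid oxidation is the list with the longer 600 bar, and endothelial, stellate and cholangiocyte genes are at 0%.

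Peaks at gene ends were wider and of lower −log10 p in the 600 libraries like those elsewhere. Gene ends listed in both libraries of a number came to 7306 gene and number combinations over 4383 genes. Replicates 1 to 7 gave 3226, 2, 172, 60, 47, 1 and 3798 of them, so the pooled values describe mainly replicates 1 and 7. The 600 peak was wider in 6763 of the 7306 (92.6%) and had the lower −log10 p in 6966 (95.3%). The median width was 747.5 bp in the 200 and 1169 bp in the 600 libraries, and the median log2 ratio 0.63. The same count over the lists gave 37 of 38 wider for chaperones, 14 of 14 for sterol genes, 10 of 10 for hepatocyte transcription factors and 20 of 21 for immediate early and stress genes. Their median log2 ratios were 0.73, 0.87, 0.93 and 0.88. For the secreted hepatocyte genes 12 of 13 were wider, from a median of 1035 to 2919 bp, with a median log2 ratio of 1.09.

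The widest 600 peaks at gene ends, chosen after their values had been seen, included several of these liver genes. At ALB (chromosome 8, gene from 69643427 to 69663152) the end peak was 703 bp in 200 replicate 1 and 1707 bp in 200 replicate 7. In the 600 libraries it was 4433 and 3873 bp and reached further into the gene, from 69660412 to 69664844 in replicate 1. The −log10 p hardly moved there, with 4.68 and 5.27 against 4.89 and 5.05. At HPX the peak went from 546 and 1035 bp to 2919 and 2817 bp. At HP, where the 200 peaks were already 3202 and 5629 bp, the 600 peaks were 5012 and 6146 bp. The medians of the 2 numbers went from 950 to 3575 bp at DUSP6, a MAP kinase phosphatase, from 628 to 3293.5 bp at SPRY2, an inhibitor of receptor kinase signalling, from 973 to 3117 bp at CITED2, a transcriptional coregulator, and from 1084.5 to 2939.5 bp at JUN. FGG was an exception among the liver genes, with 621 and 1046 bp in the 200 and 1052 and 917 bp in the 600 libraries.

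The difference between 600 and 200 was not detectably particular to the high fat group. Median width differed by 498 bp ± 85.8 in high fat and by 486 bp ± 32.3 (SD, n = 7 numbers each) in low fat (exact permutation of the fat groups, p = 0.726, adjusted p = 0.745). The log10 peak number differed by −0.68 ± 0.220 and −0.50 ± 0.191 (n = 7 each, exact permutation p = 0.124, adjusted p = 0.247). Median −log10 p differed by −0.23 ± 0.332 in high and −0.54 ± 0.168 in low fat, which did not pass after adjustment (n = 7 each, exact permutation p = 0.0379, adjusted p = 0.227). At regions listed in both libraries of a number, the mean log2 ratio of widths was 0.66 in high and 0.63 in low fat, and that of −log10 p −0.33 in each (n = 7 each, exact permutation adjusted p of 0.976 and 0.995). The sites on chromosomes 4 and X and the strong site on chromosome 9 were higher in the 600 library in 7 of 7 numbers of the low fat group as well. There the medians at the site on chromosome 4 were 452 and 3859.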

How the data were processed

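The table holds 1 deposited peak list per library, with positions, score, signal, −log10 p, summit and library, per the file headers. Per the submitters' processing notes, the tools were Genrich, Picard, BWA, SAMtools and FastQC and the build Sscrofa11.1, with no roles or versions. In 84191 of 84192 peaks the deposited score matched 1000 times signal over width, capped at 1000, to within 0.5, so the deposited signal was taken as the peak's area. The authors' −log10 p reached 6838.3 and was 2.83 at the lowest. Depth is unknown, so no counting interval is given, and the precision rests on the spread between 7 libraries per set.

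Computed here were regions (overlap of at least 1 bp), library measures, exact permutation tests over the 3432 divisions of 7 against 7 libraries, exact sign-flip tests over 7 numbers, and Fisher's exact tests for regions in at least 3 libraries, adjusted by Benjamini-Hochberg with the threshold at 0.05. All tests are two-sided. Fisher's test was tested on simulated data. Shared-region ratios needed 20 regions per number. Gene positions were RefSeq's for that build, and 180 of 185 list members matched. Named were regions with the smallest p, those in all 14 libraries, those in the 600 library alone or in both libraries of the most numbers, extreme ratios and leading list members. Some items the rule selects are not reported here. The members and lists were chosen with earlier results of these data known. Versions were scipy 1.17.1, numpy 2.4.6, matplotlib 3.10.9, pandas 2.3.3 and Python 3.11.15.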

Additional observations from a re-analysis of the deposited data

How the results depend on the processing

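Leaving out each of the 14 libraries in turn changed no call. The difference in median width stayed between 475 and 524 bp, that in log10 peak number between −0.88 and −0.51, that in the share near gene ends between −2.84 and 7.37 percentage points, that outside genes between 0.547 and 11.7 points, that in signal per bp between −0.10 and 0.06 and that in −log10 p between −0.35 and −0.10. Without each number in turn, the shared-region ratios stayed between 0.64 and 0.68 for width, −0.35 and −0.29 for −log10 p and −0.43 and −0.34 for signal per bp. The replicate block, an exact sign-flip over the numbers, left the log10 peak number at −0.68 and let it pass (adjusted p = 0.0469); it changed no other call. Whether the numbers pair libraries is not shown: deviations of a 600 library correlated over 0.1 with its own 200 library in 4 of 7 numbers, and the best match was the own number in 4 of 7. The log10 peak numbers of libraries with the same number correlated (n = 7, Pearson r = 0.977, exact permutation p = 0.000595; Spearman rho = 0.964, exact permutation p = 0.00278), with r = 0.965 without the 2 farthest from the median. With equal peak numbers in a pair, signal per bp differed by −1.13 and −log10 p by −1.93. The 200 lists were shortened on −log10 p there, so the direction follows from the selection and neither value is a test. Shared-region ratios for −log10 p, width and signal per bp were −0.38, 0.69 and −0.44 with at least 100 regions, where 3 numbers were left (exact adjusted p = 0.25, the smallest possible), and −0.33, 0.69 and −0.41 near gene ends, where 5 were left (exact adjusted p = 0.0625, also the smallest). Against 200 libraries of other numbers, an alternative chosen after seeing the data, they were −0.18 for −log10 p (exact adjusted p = 0.211) and −0.18 for signal per bp (0.328), and the cause was not tested; width stayed at 0.82 (exact adjusted p = 0.0469) and was above 0 in 38 of 40 such pairings. The count of regions passing the test of presence was 0 under every alternative run.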
